A study of Nematostella vectensis with 84 samples.

Results

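Gene expression after cytochalasin D was set against that after streptomycin at the time point labelled T3. The tissue was oral disc with tentacles, taken from adults of the starlet sea anemone Nematostella vectensis. The comparison took the 6 libraries titled cytochalasin D T3 and the 6 titled streptomycin T3, 12 of the 84 libraries of the series. The members were chosen by treatment and time point in the titles and not by a measured value, although earlier results of these data were known. Both groups carried letters A to F. Letters A and D, B and E, and C and F were treated as 3 letter pairs, and the pair was a block in the test. No label gives these pairs: they were read from earlier results of these counts. GEO's design text counts 3 replicates for each of 2 conditions, the sources used here do not say what that second condition or the letters stand for, and a group of 6 may thus hold 3 replicates of 2 unlike conditions or 3 sources measured in duplicate.

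The cytochalasin D libraries came from animals recovering from the drug, sampled at hourly points, and T3 is the fourth of 5 such points, T0 to T4. The streptomycin libraries came from animals given a set length of exposure and then 1 period of recovery that was the same at all 4 points, T0 to T3. T3 therefore does not stand for the same time in the 2 groups. The labels state no concentration, no exposure length and not whether T0 precedes the trauma, and no untreated group was analysed here. They also do not tie the 6 libraries of a group to separate animals, so each p-value refers to variation among libraries and that variation may be technical. The titles end in library numbers. Those of both T3 groups lie in the upper range of the series, but each group forms a separate run, so treatment and place in that numbering cannot be told apart.

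Cytochalasin D caps the growing ends of actin filaments and blocks their elongation. Streptomycin is an aminoglycoside that binds bacterial ribosomes and, in vertebrates, blocks the transduction channels of hair cells and can kill them. Sea anemone tentacles carry hair bundle mechanoreceptors whose processes are filled with actin. The study, by its title, asked how gene expression moves as the animals recover from different forms of trauma. The table gives numbered gene models (NVE) without names, and 0 of its 23510 identifiers matched the reference gene table (assembly jaNemVect1.1). No gene is therefore described by function, the tissue could not be checked against marker genes, and no sequence is shown. By rule, 2 identifiers of each direction are named, and NVE1808 is named later as the single call of a test, after its values were seen.

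Depth was shallow, and the ranges of the 2 groups overlapped. The cytochalasin D libraries held between 277926 and 358847 counts and the streptomycin libraries between 266196 and 354795, so 1 read was worth 2.79 to 3.76 CPM (reads of a gene per 1e6 reads of the library). Totals averaged 323667 ± 30163 in cytochalasin D, against 298660 ± 38549 in streptomycin (SD, n = 6 each; two-sided exact permutation p = 0.238). By letter, cytochalasin D exceeded streptomycin by 42610, 63484 and 57534 reads in A, B and C. In D, E and F the differences were 396, -25357 and 11373 reads. With every library thinned to 266196 reads, 13167 ± 194 genes were detected in cytochalasin D, against 12792 ± 543 in streptomycin (SD, n = 6 each; two-sided exact permutation p = 0.154). This mean hides 2 directions. The cytochalasin D library of the same letter had 629, 1323 and 1005 more genes than the streptomycin library in letters A, B and C, and differed from it by -384, -65.3 and -261 genes in D, E and F. Over the 84 libraries totals ran from 194043 to 591692.

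The most abundant transcripts took a smaller part of the reads in cytochalasin D. The 10 genes with most reads held 26.3%, 24.1%, 27.5%, 29.5%, 29.2% and 32.3% of the reads in cytochalasin D libraries A to F. In streptomycin libraries A to F they held 35.8%, 34.9%, 37.8%, 30.1%, 31.1% and 34.1%. The groups overlapped, since cytochalasin D library F lay above streptomycin libraries D and E. Mean shares were 28.1% ± 2.83 in cytochalasin D, against 34.0% ± 2.92 in streptomycin (SD, n = 6 each), a difference of -5.83 percentage points (two-sided exact permutation p = 0.0108). Paired by letter, the difference was negative in 6 of 6 letters (exact permutation of signs, p = 0.0312, the smallest that 6 pairs allow). It was not of 1 size: it was -9.57, -10.7 and -10.4 points in letters A, B and C, and -0.548, -1.95 and -1.80 points in D, E and F. The mean thus describes neither set of letters. All 10 genes had a negative log2 fold change, from -0.68 to -0.28, and 9 of them passed the test described next. Scaled by library totals alone, all 10 stayed negative, from -0.49 to -0.088, and 6 passed.

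Of 2922 genes tested, 212 differed between the treatments at T3 (edgeR quasi-likelihood test with letter pair as a block, Benjamini-Hochberg adjusted p under 0.05), which is 7.26% of the genes. Cytochalasin D was lower for 107 of them (3.66% of the genes tested) and higher for the rest (3.59%). The higher genes had the larger fold changes. Their median log2 fold change was 0.84, 33 of them were over 2-fold higher and 5 were over 4-fold higher. The lower genes had a median of -0.65, 16 of the 107 were over 2-fold lower and 0 were over 4-fold lower. Over all tested genes the median was -0.0093. The genes called higher were less abundant than those called lower (median log2 CPM 7.05, against 7.75). The SE of their log2 fold change was also larger (median 0.206, against 0.149), so larger fold changes were needed to pass. The genes called higher held 4.47% ± 0.380 of the reads in cytochalasin D, against 2.51% ± 0.400 in streptomycin (SD, n = 6 each). Those called lower held 32.0% ± 2.93 in cytochalasin D, against 39.4% ± 3.11 in streptomycin (SD, n = 6 each). These shares describe genes that the same libraries chose, and no test was made of them.

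Calls followed abundance. Of the 974 most abundant genes 14.1% were called, 58 higher and 79 lower in cytochalasin D. Of the 974 in the middle 4.52% were called, 28 higher and 16 lower, and of the 974 least abundant 3.18%, 19 higher and 12 lower. The median SE of the log2 fold change was 0.146 in the first class, 0.219 in the second and 0.265 in the last, so smaller differences could pass among abundant genes. The balance of directions rested on the scaling: by library totals 257 genes were higher and 50 lower (83.7% higher, against 49.5% with TMM scaling), where the median log2 fold change of all genes was 0.17, and with no filter on low counts 63.2% of 204 calls were higher. The number of calls was 0.495 times as large with no replicate block, and all of those genes were among the 212. With the libraries of a letter pair summed, which leaves 3 samples a group, it was 217. It was 52 in 1 fit of all 84 libraries, 82 without letters A and D and 101 without letters C and F.

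**Figure D1:**
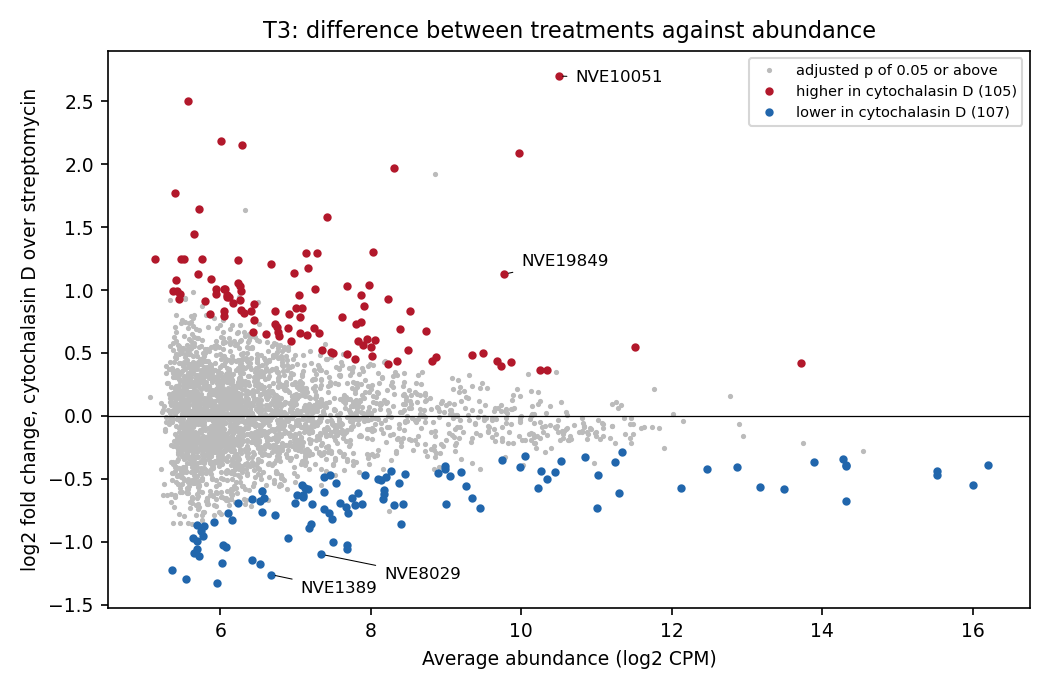
Each point is 1 of the 2922 tested genes, by average abundance (log2 CPM, x axis) and log2 fold change of cytochalasin D over streptomycin at T3 (y axis). Genes called higher (red) reach a log2 fold change of 2.70, whereas the 107 called lower (blue) reach -1.33 and include 9 of the 10 most abundant genes.

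The groups did not overlap for 61 of the 2922 tested genes (2.09%), 31 with all 6 cytochalasin D libraries above all 6 streptomycin libraries (1.06%) and 30 with all 6 below (1.03%). Of the 212 called genes 50 were separated in this way, 26 higher and 24 lower. The sign was the same in all 3 letter pairs for 209 of the 212, against 42.2% of all tested genes, but the test was blocked on these pairs and chose the 212 in part for this. Named below are 4 genes, 2 of each direction, with above-median abundance and 1 sign in the 3 letter pairs: the largest fold change and, of the others, the smallest p. All 4 belong to the separated genes.

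NVE10051 had the largest fold change of all tested genes. In cytochalasin D libraries A to F it had 2374, 1085, 2578, 3088, 1977 and 3738 CPM (scaled by TMM, as are all CPM values from here). In streptomycin libraries A to F it had 522, 269.6, 565, 349, 157.8 and 471 CPM. The lowest cytochalasin D library, B, thus lay above the highest streptomycin library, C, and in both groups the lowest library was from letters B and E. With means of 2473 ± 914 CPM in cytochalasin D, against 389 ± 157.98 CPM in streptomycin (SD, n = 6 each), the log2 difference was 2.70 ± 0.15 (SE, edgeR adjusted p = 5.35e-14). The level also differed between letter pairs (edgeR adjusted p = 9.95e-05), while the log2 difference between treatments was 2.65 in A and D, 2.78 in B and E and 2.57 in C and F.

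NVE19849 was 2.18-fold higher in cytochalasin D. Its values in cytochalasin D libraries A to F were 1197, 882, 838, 1458, 1383 and 1368 CPM. In streptomycin libraries A to F they were 639, 431, 527, 614, 527 and 524 CPM. Cytochalasin D libraries B and C were closest to streptomycin, and the groups did not overlap. Means of 1188 ± 268 CPM in cytochalasin D, against 544 ± 74.5 CPM in streptomycin (SD, n = 6 each), gave a log2 difference of 1.13 ± 0.13 (SE, edgeR adjusted p = 1.07e-06).

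NVE1389 had the largest fall among the genes that could be named. It had 33.5, 79.6, 68.7, 39.9, 64.9 and 53.6 CPM in cytochalasin D libraries A to F, which is 10 to 29 reads. In streptomycin libraries A to F it had 121.4, 126, 116, 83.4, 262 and 110.1 CPM, or 24 to 78 reads. Streptomycin library E stood far above the other 5, and streptomycin library D, at 83.4 CPM, was just above cytochalasin D library B. The log2 fold change was -1.26 ± 0.21 (SE, edgeR adjusted p = 2.23e-04), with means of 56.7 ± 17.7 CPM in cytochalasin D, against 136.5 ± 63.2 CPM in streptomycin (SD, n = 6 each).

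NVE8029 was lower in cytochalasin D with a narrower spread. Libraries A to F had 100.6, 129.1, 101.4, 82.9, 88.8 and 94.8 CPM in cytochalasin D. They had 193, 187, 237, 172.9, 201 and 322 CPM in streptomycin. The groups were separated by a gap between cytochalasin D library B at 129.1 CPM and streptomycin library D at 172.9 CPM. Its log2 fold change was -1.10 ± 0.16 (SE, edgeR adjusted p = 4.13e-05), from means of 99.6 ± 16.1 CPM in cytochalasin D, against 219 ± 54.7 CPM in streptomycin (SD, n = 6 each).

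**Figure D2:**
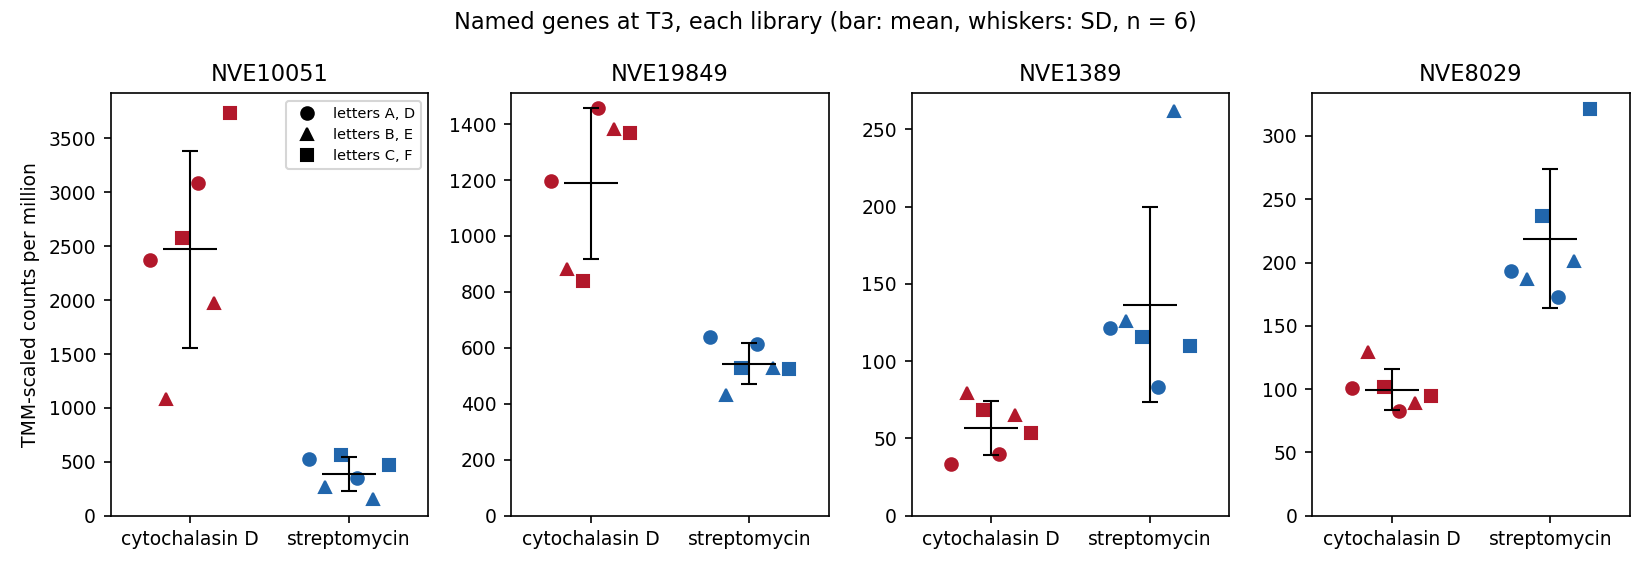
Each panel shows the TMM-scaled CPM (y axis) of 1 named gene in the 6 cytochalasin D (red, left) and 6 streptomycin (blue, right) libraries of T3, with symbols for letter pairs, a bar for the mean and whiskers for the SD. In all 4 panels the groups do not overlap, and streptomycin library E of NVE1389, at 262 CPM, stands apart from its group.

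The letter pairs were read from these counts, so the next values describe their size and are no test that they exist. Within the 12 libraries 203 genes (6.95% of those tested) differed between letter pairs, and 32 genes differed by both, which is 15.1% of the treatment calls and 15.8% of the letter-pair calls. The largest differences between pairs exceeded the largest treatment difference. Letters C and F against B and E gave 134 calls (4.59%), 37 of them over 4-fold, with a largest log2 difference of 9.79. Letters B and E against A and D gave 102 calls (3.49%), 17 over 4-fold, and C and F against A and D gave 101 (3.46%), 24 over 4-fold. Deviations from the group means were correlated across the 2 treatments for libraries of the same letter, from 0.168 to 0.440 over the 6 letters. For libraries of the same pair these correlations ran from 0.0996 to 0.489, and for libraries of other pairs from -0.387 to 0.142.

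By edgeR 1 gene of 2922 (0.0342%; 107 at an unadjusted p under 0.05) passed the test of whether the treatment difference varied with the letter pair, and DESeq2 called 0. That gene, NVE1808, is named because it is the single call. It had 184.4, 1167, 85.1, 30.7, 2533 and 606 CPM in cytochalasin D libraries A to F. In streptomycin libraries A to F it had 0, 0, 164.3, 516, 16.8 and 39.7 CPM. Its levels were highest in cytochalasin D libraries B and E and differed widely within the groups, and the treatment difference as a whole did not pass (log2 fold change 1.92, edgeR adjusted p = 0.135). The test of treatment by letter pair (edgeR adjusted p = 0.0396) gave 0 calls without any 1 of cytochalasin D libraries D and E or streptomycin libraries B, D, E and F. It gave 3 without cytochalasin D library B, 2 without streptomycin library A and 3 without streptomycin library C, and 1 without any other single library.

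The treatment difference also varied between letters A to C and letters D to F, a split taken up after the library values above were seen. With the letter pair kept as a block, 47 genes of 2922 (1.61%, with 12.4% at an unadjusted p under 0.05) passed the edgeR test of treatment by letter set. For the letter sets themselves 2 genes (0.0684%) passed, in a fit that averages over the 2 treatments. Opposite shifts in the 2 treatments cancel there, so this count does not show that the letter sets were alike. The treatment difference was more positive in D to F for 30 of the 47 and more negative for 17, and 18 of the 47 are among the 212 (8.49% of them). The 47 became 29 without cytochalasin D library C, 27 without D, 29 without streptomycin library B and 28 without E. Over the 107 genes called lower in cytochalasin D the median log2 difference was -0.70 in A to C and -0.56 in D to F. For the genes called higher the medians were 0.80 in A to C and 0.74 in D to F. The same libraries chose these genes by their treatment difference over both sets, which favours medians of the called sign in each set. These medians therefore cannot decide whether both directions were present in each set of letters. NVE10051 passed, with a log2 difference of 2.11 in A to C and 3.23 in D to F (edgeR adjusted p = 2.98e-04), whereas the other 3 named genes did not (edgeR adjusted p = 0.255 to 0.716). With the letter set as a further term 253 genes differed between the treatments, 211 of the 212 among them. Whether the letter sets are the 2 conditions of the design text cannot be told from the labels.

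Streptomycin library D stood nearer to cytochalasin D than the other streptomycin libraries did. Each T3 library was placed between the streptomycin mean (0) and the cytochalasin D mean (1), gene by gene on log2(CPM + 2), with the genes and means found in the other 11 libraries, and the median over those genes was taken. Cytochalasin D libraries A to F lay at 1.09, 0.660, 0.767, 0.935, 0.812 and 0.854. Streptomycin libraries A to F lay at 0.0846, -0.0191, 0.108, 0.491, 0.289 and 0.100. No streptomycin library reached the lowest cytochalasin D library, and library D was the highest of its group. With the genes and means of the other 11 libraries, 49% of genes in library D lay on the cytochalasin D side. In the other streptomycin libraries it was 19.2% to 32.1%. Of the 212 called genes, which each library helped to choose, 77 (36.3%) were nearer to the cytochalasin D mean in library D. In the other streptomycin libraries it was 10.4% to 24.1%. Of the 33 genes over 2-fold higher in cytochalasin D, 12 had their highest streptomycin value in library D, and 12 had a library D value inside the cytochalasin D range. The same libraries chose these 33 genes. The 2 counts were not made for the other streptomycin libraries, so they do not set library D apart. Library D also had the most reads of the streptomycin group (354795), the most genes at equal depth (13391) and the smallest share in the 10 most abundant genes (30.1%), and their part in its position was not tested. Without it 192 of 3050 tested genes were called, 96 in each direction, which shared 77.8% of the 212. Of the 192, 11 were over 4-fold apart, against 5 of the 212 with all 12 libraries. The latter fit tested 2922 genes, so these counts come from unlike sets of genes.

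**Figure D3:**
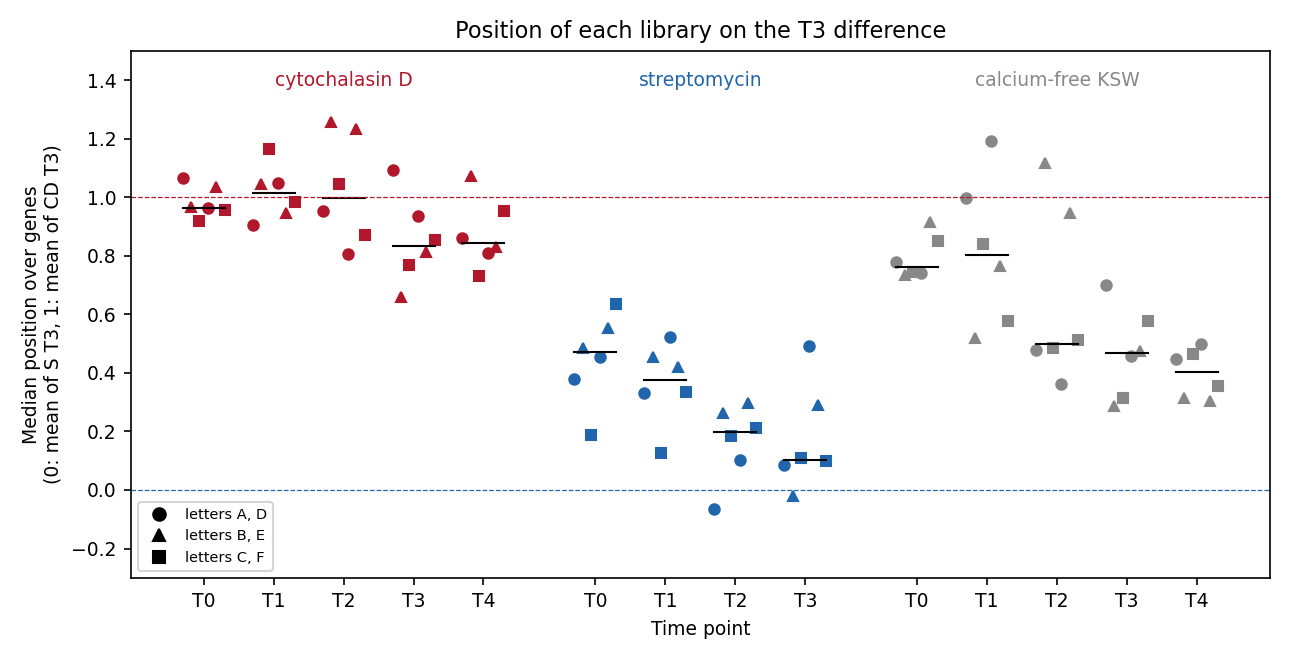
Each point is 1 of the 84 libraries, by treatment and time point (x axis) and its median position over the genes that differed at T3 (y axis), where 0 is the streptomycin T3 mean and 1 the cytochalasin D T3 mean; black lines are group medians. Cytochalasin D medians lie between 0.833 and 1.02, streptomycin medians between 0.104 and 0.471, and streptomycin T3 library D sits at 0.491.

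The same genes were then read in libraries that the T3 comparison did not use. T2 came first, where letters C to F of both treatments have title numbers in the upper range (8 libraries, fitted with the 12 of T3). As at T3, each treatment forms a separate run of these numbers. Treatment and place in the numbering therefore cannot be told apart at T2 either. There 90 of 3963 genes differed (2.27%), 59 higher (1.49%) and 31 lower (0.782%) in cytochalasin D. Of the 212 genes called at T3, 204 (96.2%) had the same sign at T2, against 65.4% of the 2710 genes not called at T3. Of the 212, 59 (27.8%) were also called at T2 in the same direction and 0 in the other. Those 59 were 78.7% of the 75 T2 calls that were tested at T3. The genes higher at T3 had a median log2 fold change of 0.66 at T2 and 0.84 at T3, and the genes lower at T3 had -0.46 at T2 and -0.65 at T3. Choosing genes at T3 favours larger values there. The T2 count was 314 with all 6 letters and 22 with no replicate block. It was 16 without cytochalasin D T2 E or streptomycin T2 E, 55 and 50 without cytochalasin D T2 C and D, and 54 and 52 without streptomycin T2 C and D.

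The T3 directions were also found at T0 and T1, where the streptomycin libraries lie in the lower range of title numbers and the cytochalasin D libraries do not, so that treatment and range cannot be told apart. At T0 194 of the 212 genes (91.5%) had the sign of T3, against 62.8% of the genes not called at T3. At T1 it was 87.7% of the 212, against 62.3%. In all, 82 of 4316 genes differed at T0 (1.9%) and 415 at T1 (9.62%). Called in the T3 direction were 37 of the 212 at T0 and 74 at T1, and in the other direction 0 at T0 and 1 at T1. The 37 were 56.1% of the 66 T0 calls tested at T3, and the 74 were 22.8% of the 325 T1 calls. The T0 count was 50 without streptomycin T0 C, and the T1 count was 264 without streptomycin T1 B. With no filter on low counts the T0 count was 1.87 times as large, and with no replicate block it was 50.

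Across T0, T1 and T2 together, 170 of the 212 genes (80.2%) kept the T3 sign at each point, against 34.0% of the genes not called at T3. In 109 of the 212 (51.4%) the T3 direction was also called at 1 or more of these points, against 8.56% of the 2710 genes not called at T3. It was called at each of them in 11 of the 212 (5.19%), against 0.0738% of the genes not called. For those of the 212 outside the 109 no such call was made at T0 to T2, which does not show that the difference was particular to T3. The difference between time points was therefore tested directly. By edgeR 0 of 3963 genes differed between T3 and T2 in their treatment difference (3.73% at an unadjusted p under 0.05), and 0 of 4316 between T3 and T0 (280 at an unadjusted p under 0.05). With no filter on low counts these were 1 and 11, and the second was 3 without cytochalasin D T3 B and 1 without cytochalasin D T3 C. These tests share the T3 libraries. Streptomycin libraries lie in the lower range of title numbers at T0 and in the upper range at T3. The T3 against T0 test therefore cannot tell time point and range apart. Over the 212 genes the median SE of the difference was 0.272 (log2) against T2 and 0.290 against T0, and its median size 0.203 and 0.353, so a difference of the median size was under 2 SE.

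**Figure D4:**
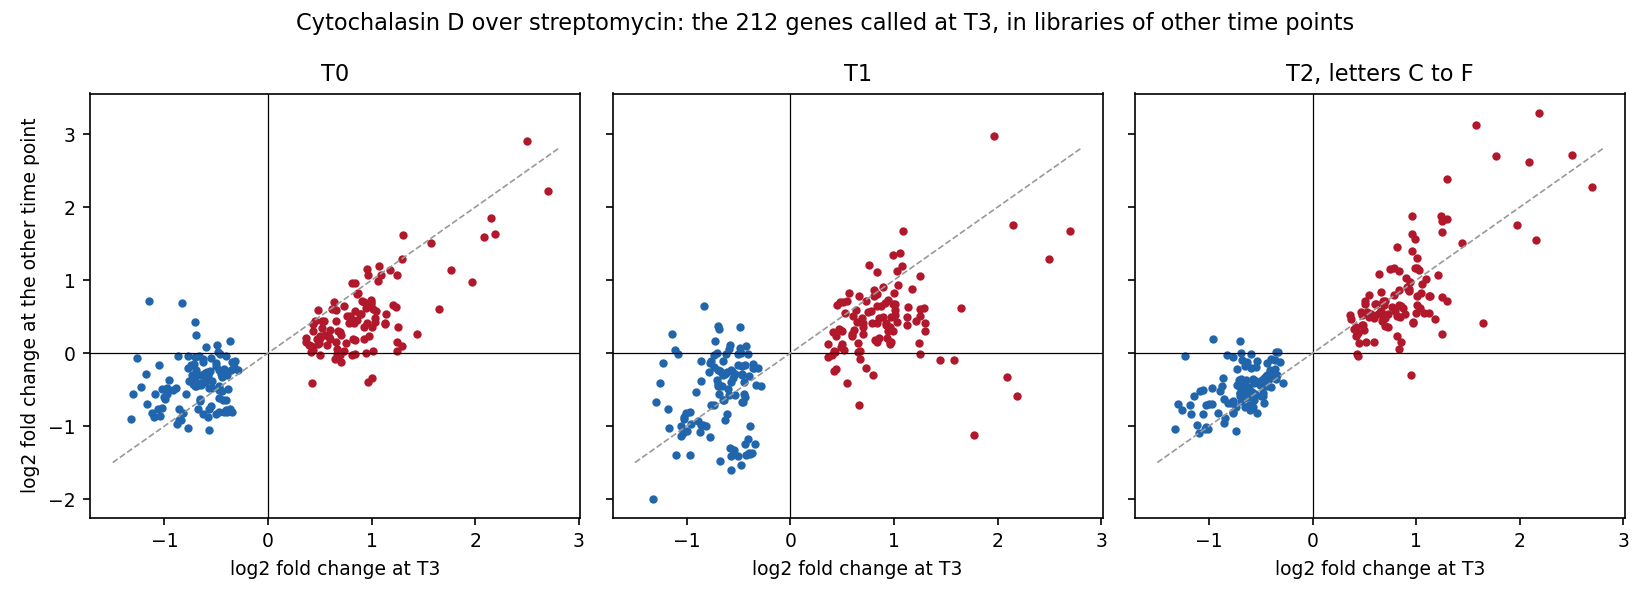
Each point is 1 of the 212 genes called at T3, by its log2 fold change of cytochalasin D over streptomycin at T3 (x axis) and at T0, T1 or T2 (y axis, 1 panel each); red genes were higher and blue genes lower in cytochalasin D at T3, and the dashed line marks equal values. Points at the upper right and lower left kept the T3 sign, 194 of 212 at T0, 87.7% at T1 and 204 of 212 at T2.

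The 4 named genes differed in how far their T3 difference was seen elsewhere. They were chosen by their T3 values, which favours larger differences at T3 than at other time points. The 95% intervals given for T3 minus T0 or T2 make no allowance for this choice. Their T2 fold changes come from letters C to F, whereas the T2 means hold all 6 letters. NVE10051 was higher in cytochalasin D at every shared time point, with log2 fold changes of 2.23 ± 0.31 at T0, 1.68 ± 0.30 at T1 and 2.27 ± 0.25 at T2 (SE, edgeR adjusted p = 1.63e-05, 1.36e-04 and 3.60e-07). Scaled over all 84 libraries, its cytochalasin D means at T0 to T4 were 2498, 2926, 2011, 2369 and 2013 CPM. Its streptomycin means at T0 to T3 were 546, 969, 546 and 375 CPM. The lowest cytochalasin D mean was thus above the highest streptomycin mean, although single libraries overlapped at T1, where cytochalasin D began at 1138 CPM and streptomycin reached 1890.4 CPM. The T3 difference exceeded that at T0 by 0.46 (95% interval -0.40 to 1.33).

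NVE8029 was likewise lower in cytochalasin D at T0, T1 and T2, by log2 fold changes of -0.87 ± 0.17, -1.40 ± 0.18 and -1.09 ± 0.19 (SE, edgeR adjusted p = 0.00228, 8.59e-08 and 0.00108). Its cytochalasin D means were 89.2, 69.0, 82.2, 95.5 and 89.1 CPM at T0 to T4. Its streptomycin means lay between 161.9 CPM (T0) and 210.5 CPM (T3). The difference at T3 minus that at T0 was -0.24 (95% interval -0.72 to 0.25), and minus that at T2 -0.016 (95% interval -0.54 to 0.50).

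The treatment means of NVE19849 and NVE1389 lay farther apart at T3 than at T0, though neither passed the test of T3 against T0 over all genes. For NVE19849 the log2 fold change was 0.41 ± 0.12 at T0, 0.39 ± 0.12 at T1 and 0.78 ± 0.15 at T2 (SE, edgeR adjusted p = 0.0565, 0.0254 and 0.00226). Cytochalasin D means were 899, 883, 1007, 1138 and 1042 CPM at T0 to T4, and streptomycin means were 680.3, 665, 614 and 524 CPM at T0 to T3. The cytochalasin D means thus tended upward to T3 and the streptomycin means downward. Streptomycin title numbers pass from the lower to the upper range between T1 and T3. The streptomycin trend and the range cannot be told apart. The difference at T3 was larger than at T0 by 0.71 (95% interval 0.38 to 1.05, edgeR adjusted p = 0.103). NVE19849 was chosen for its small p at T3, for which the interval makes no allowance, so it does not show that the difference grew.

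For NVE1389 the treatments lay together at T0, at a log2 difference of -0.067 ± 0.30 (SE, edgeR adjusted p = 0.951). At T1 it was -0.42 ± 0.28 and at T2, in letters C to F alone, -0.79 ± 0.30 (SE, edgeR adjusted p = 0.393 and 0.192). The cytochalasin D means were 55.8, 56.4, 65.7, 54.4 and 63.4 CPM at T0 to T4, against streptomycin means of 58.7, 73.9, 96.4 and 132 CPM at T0 to T3. The cytochalasin D means thus stayed within a narrow band, and the streptomycin means were higher at each later point. As for NVE19849, the streptomycin trend and the range of title numbers cannot be told apart. The difference at T3 minus that at T0 was -1.20 (95% interval -1.99 to -0.41, edgeR adjusted p = 0.438). NVE1389 was chosen for its large fold change at T3, and this interval makes no allowance for that either.

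**Figure D5:**
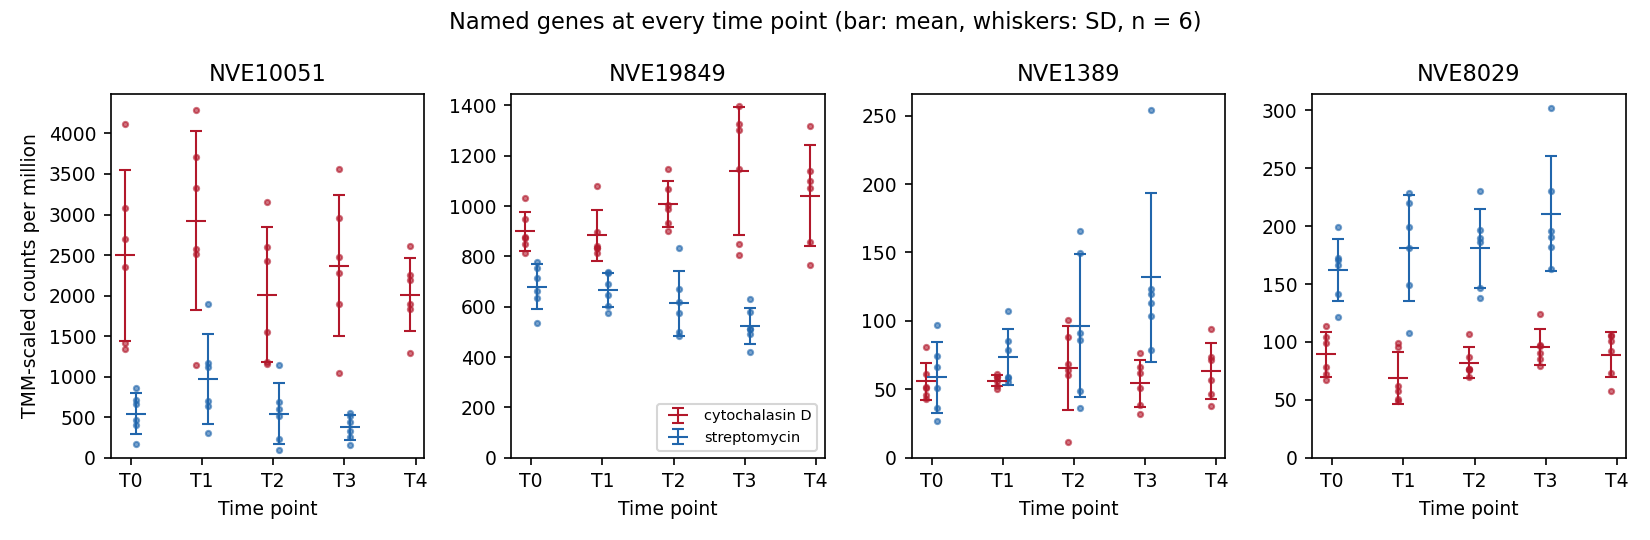
TMM-scaled CPM (y axis) of the 4 named genes by time point (x axis) in cytochalasin D (red) and streptomycin (blue); points are libraries, bars means and whiskers SD (n = 6). The treatment means of NVE10051 and NVE8029 are apart from T0 onward, whereas the NVE1389 means are 55.8 CPM in cytochalasin D and 58.7 CPM in streptomycin at T0, and 54.4 CPM in cytochalasin D and 132 CPM in streptomycin at T3. Time points of streptomycin stand for exposure lengths, those of cytochalasin D for recovery times. Streptomycin title numbers lie in the lower range at T0 and T1 and in the upper range at T3.

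Placed on the T3 difference, whole libraries of the 2 treatments lay apart at each shared time point in their medians. The cytochalasin D group medians were 0.964, 1.02, 0.999, 0.833 and 0.844 at T0 to T4, and the streptomycin medians 0.471, 0.376, 0.198 and 0.104 at T0 to T3. The T3 medians used leave-one-out genes, whereas the other libraries had no part in choosing the 212 genes. At T0 cytochalasin D libraries ran from 0.918 to 1.06 and streptomycin libraries from 0.188 to 0.634, so the groups did not overlap there. The libraries of the remaining treatment, calcium-free KSW, had medians of 0.761, 0.802, 0.500, 0.466 and 0.401 at T0 to T4. At each shared time point these lay between the cytochalasin D and streptomycin medians. The 212 genes were chosen for a difference between cytochalasin D and streptomycin at T3, and those T3 means also set the scale. This choice favours a place between them for libraries of any other treatment. The calcium-free positions therefore do not show an intermediate response. All calcium-free title numbers lie in the lower range and all cytochalasin D ones in the upper. Streptomycin passes from the lower range at T0 and T1 to the upper at T3. Treatment or time point and range therefore cannot be told apart in these positions.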

How the data were processed

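RNA of the oral disc and tentacles was measured in 84 libraries made by a published tag-based protocol, per the labels. The authors deposited 1 table of raw read counts per gene model, with no scaling. Bowtie2 was used, per the submitters' processing notes; its version and the genome build, annotation, counting tool, strand setting and handling of duplicates were not given in the sources used here, so reads of near-identical, overlapping or antisense genes may be split or joined. Each column matched 1 title, with 0 left over, and 0 pairs of columns held identical values. Within the T3 groups, libraries differed by at least 2.28 times the chi-square per degree of freedom expected from counting, so all 12 were kept as separate.

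The 12 libraries were tested with edgeR 4.0.16 in R 4.3.3 (filterByExpr by group, TMM scaling, estimateDisp, glmQLFit, glmQLFTest), with letter pair as a block, Benjamini-Hochberg adjustment and a threshold of 0.05. SEs were derived from the F statistic. T2 (letters C to F) with T3 were fitted in 20 libraries, and T0 and T1 in the 48 cytochalasin D and streptomycin libraries of T0 to T3, with group terms plus the letter-pair block. DESeq2 1.42.0 was an alternative. Scripts were tested on simulated data.

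The letter pairs come from earlier results of these counts, not from a label. Same-letter correlations of deviations across the 2 treatments were above 0.1 for all 6 letters (lowest 0.168). For libraries of the same pair they ran from 0.0996 to 0.489, and for libraries of other pairs up to 0.142. These values come from the counts that gave the pairs, so they are no test of them. Named genes had an adjusted p under 0.05, above-median abundance and 1 sign in the 3 letter pairs; without names, 2 of each direction were taken (largest log2 fold change, then smallest p). NVE1808 lies outside this rule and was named after its values were seen. The members, rules and tests were chosen with earlier results of these data known. Gene lists and marker lists could not be used because no identifier matched a name.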

Additional observations from a re-analysis of the deposited data

Results flagged for a closer look

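In the streptomycin T3 group NVE1389 had 262 CPM in library E, against 83.4 to 126 CPM in the other 5 libraries, a gap of 0.760 of the group's range. Of 20 sets of 6 values examined in this way, 1 was past Dixon's limit, and chance alone gives about 1 in 20. The log2 fold change of NVE1389 without any 1 library ran from -1.40 to -1.02, with edgeR adjusted p from 1.19e-04 to 0.00321.

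The treatment difference of NVE1808 at T3 differed between letter pairs (edgeR adjusted p = 0.0396). In cytochalasin D it was highest in letters B and E (1167 and 2533 CPM), whereas in streptomycin the highest library was D (516 CPM) and libraries A and B had 0 reads.

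The treatment difference of NVE10051 was larger in letters D to F than in A to C, by 1.10 ± 0.18 on the log2 scale (SE, edgeR adjusted p = 2.98e-04), a split chosen after values were seen. Genes detected at equal depth went opposite ways in these letter sets. In A to C cytochalasin D had 13296 ± 177.5 genes, against 12311 ± 180.1 in streptomycin (SD, n = 3 each), a mean difference of 986. In D to F cytochalasin D had 13037 ± 108 genes, against 13274 ± 102 in streptomycin (SD, n = 3 each), a mean difference of -237. The contrast of these 2 differences was not tested.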

How the results depend on the processing

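The 4 named genes kept their direction and stayed past the threshold under all 26 alternatives of the T3 test: log2 fold changes ran from 2.58 to 2.88 for NVE10051, 1.02 to 1.30 for NVE19849, -1.44 to -1.02 for NVE1389 and -1.26 to -0.90 for NVE8029. Numbers of calls are given next as multiples of those reported. The T3 number was 0.495 times as large with no replicate block, 0.245 times in 1 fit of all 84 libraries, and 0.387 and 0.476 times without letters A and D or C and F. It was 0.693 to 1.03 times with 1 library left out. The other T3 alternatives, the letter set (A to C or D to F) as a further term (253 calls, added after seeing the data), library totals (307 calls) and the paired fit by single letter (194 calls) included, stayed within 1.5 times, and the cause of the lower numbers was not tested. The share of T3 calls with the same sign at T2 ran from 94.5% to 99.0% over all T3 alternatives. Letter-pair calls were 1.58 times as many with no filter on low counts and 0.793 to 1.08 times with 1 library left out. T2 calls were 3.49 times as many with all 6 letters, 0.244 times with no replicate block and 0.178 to 1.06 times with 1 library left out. T0 calls were 1.87 times as many with no filter, 0.610 times with no replicate block and 0.610 to 1.34 times with 1 library left out, and T1 calls 0.636 to 1.10 times. Calls for treatment by letters A to C and D to F, a test added after seeing the data, were 0.574 to 1.17 times as many with 1 library left out. As counts, calls for treatment by letter pair were 10 with no filter, 0 with DESeq2 and 0 to 3 with 1 library left out. Calls between T3 and T2 were 1 with no filter and 0 without any 1 library, and between T3 and T0 they were 11 and 0 to 3. Without any 1 library the mean total of cytochalasin D exceeded that of streptomycin by 17971 to 36234 reads and genes at equal depth by 249 to 494, neither of which passed, and the share in the 10 most abundant genes differed by -6.65 to -5.02 percentage points. Paired by letter (added after seeing the data), exact permutation gave p = 0.156 for totals, 0.312 for genes and 0.0312 for the share, the smallest possible.

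At 266196 to 358847 reads per library, genes of low abundance (under about 33.6 CPM) were not tested, and errors cover the spread among these libraries alone.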
